A study of Mus musculus with 2 samples.

Results

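Histone genes were followed in RAW246.7, a mouse macrophage-like cell line written here as the submitters spell it, as 81 of the 55414 genes in the deposited gene table. They were chosen by symbol alone. The symbols mark a linker histone (H1), a core histone of a chromosomal cluster (H2A, H2B, H3 or H4, with H2aw included) or a core histone variant. The core variants are H2A.Z, H2A.X, H2A.J, H3.3 and macroH2A. The stretched cells were loaded at 20% elongation strain for 24 h, and the control cells were held for the same 24 h under a strain that the labels call normal without giving its value. Both samples carry the same line, and no genotype or drug is named for either. The series asks which genes respond to mechanical load in a study that centres on Rapgef3, synovitis and osteoarthritis.

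Each group was 1 library of poly(A)-selected, strand-marked RNA, so each difference given is between 2 libraries and has no replicate check. The deposited estimated counts summed to 13391645 in the stretched library and 14769100 in the control library. Of 12 macrophage markers, 10 had at least 20 counts over both libraries, and the 12 summed to 102717 counts in the stretched and 88595 in the control library. Lyz2 alone held 43773 of these counts in the stretched and 28385 in the control library. Of the 10 markers with at least 20 counts, 4 had a log2 difference (stretched over control) below 0. Marco, a scavenger receptor of macrophages, was at 0 in both, and Mrc1 had 1 count in the stretched and 4 in the control library. Although the labels give synovial membrane as the tissue, 10 fibroblast and synovial lining markers summed to 23 counts in the stretched and 19 in the control library, and 6 of the 10 were at 0 in both. T cell markers summed to 6 counts in each library, and endothelium markers to 43 in the stretched and 39 in the control library. Their part in the histone values was not tested.

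Histones package DNA into nucleosomes, which are built from H2A, H2B, H3 and H4 and bound at the linker by H1. The genes of the chromosomal clusters supply histones while DNA is copied, and their messenger RNAs normally end at a conserved stem-loop in place of a poly(A) tail, so that poly(A) selection captures only the fraction that carries a tail. Replacement variants such as H3.3 and H2A.Z are made throughout the cell cycle from polyadenylated transcripts and enter chromatin outside of replication.

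The 81 genes comprised 67 cluster genes, 10 replacement variants and 4 other linker histone genes, known from the germline or annotated as a pseudogene (H1f7, H1f8, H1f9 and H1f11-ps). The cluster genes include H2ac14 and H2ac5-ps, which are annotated as unprocessed pseudogenes. H2ac14 had 1 count in the stretched and 5 in the control library, and H2ac5-ps had 0 in the stretched and 1 in the control library. The Hist1 cluster on chromosome 13 held 56 of the cluster genes, the Hist2 cluster on chromosome 3 held 10, and the Hist3 locus on chromosome 11 held 1, H2aw. At least 1 count was listed for 74 of the 81, and 30 had at least 20 counts over both libraries. Of the 4 other linker genes, 3 were at 0 in both libraries and H1f8 had 0 counts in the stretched and 3 in the control library.

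The stem-loop is shown for 8 cluster genes and for H2ax because it decides how a histone transcript ends. The annotated transcripts were searched for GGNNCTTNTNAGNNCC, in which the letters at both sides of the loop pair to a stem of 6 bases around a loop of 4. It was found in 72 of 141767 mouse transcripts (0.0508%), from 61 genes, of which 45 were among these histone genes. The match occurred in 44 of the 67 cluster genes and in 1 of the 10 replacement variants, H2ax. A cluster gene without a match may have an annotated model that stops before the site, which was not tested. The sites below are 30 bases of the transcript strand, written as DNA, with the stem-loop in capitals. The annotated model of H2ac20 ran for 57 further bases after the stem-loop, that of H2bc11 for 23 and that of H3c8 for 47. Those of H4c9 and H3c6 ran for 330 and 369 bases, and those of H2ax, H1f2, H1f4 and H2aw for 822, 840, 1153 and 1643.
H2ac20: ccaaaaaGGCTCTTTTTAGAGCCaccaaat
H2bc11: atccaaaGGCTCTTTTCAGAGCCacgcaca
H3c8: ctttaaaGGCTCTTCTTAGAGCCacccatc
H4c9: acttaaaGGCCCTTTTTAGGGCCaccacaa
H3c6: ccaaaacGGCTCTTTTAAGAGCCacctcca
H1f2: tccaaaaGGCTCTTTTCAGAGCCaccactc
H1f4: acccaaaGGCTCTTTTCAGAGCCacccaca
H2aw: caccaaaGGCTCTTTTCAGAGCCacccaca
H2ax: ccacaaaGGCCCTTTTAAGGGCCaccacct

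The cluster genes were read at low levels and were lower as a group in the stretched library, while the replacement variants lay close to equal. All 67 cluster genes together had 711 counts in the stretched library and 1011 in the control library, a log2 difference (stretched over control, after TMM scaling of the libraries) of -0.38 with a 95% counting interval of -0.52 to -0.24. These counts were 0.00531% of the stretched library (Wilson 95% interval 0.00493% to 0.00571%) and 0.00685% of the control library (0.00644% to 0.00728%). The 10 replacement variants together had 28291 counts in the stretched and 32939 in the control library, a log2 difference of -0.09 (-0.12 to -0.07), and made up 0.211% of the stretched and 0.223% of the control library. The ratio of cluster to replacement counts was 0.819 times as high in the stretched as in the control library (95% counting interval 0.742 to 0.903), a value that does not depend on how the libraries are scaled. It does depend on where H2ax and H2aj are counted, since moving them to the cluster genes gave a log2 ratio of 0.09 (0.02 to 0.16), of the opposite direction, and a cluster sum of -0.02 (-0.09 to 0.04). All intervals cover counting error only.

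Of the 63 cluster genes with counts, 48 had a log2 difference below 0 and 15 above 0. Those above 0 include genes with equal counts, which the scaling of the libraries places there. Among all 12772 genes with at least 20 counts, a filter not used for those 63, 50.1% lay below 0 and the median was -0.0014. The median of the 22 cluster genes with at least 20 counts was -0.85, also when H2ac20, which had 0 counts in the stretched library, is placed at its bound, and that of the 8 replacement variants was -0.05. The size rule asked for 20 counts or more in the pair of libraries, a 2-fold or larger difference and a counting interval without equality. Over all 12772 genes with at least 20 counts the rule was met by 3.12% on the higher side and 1.94% on the lower side. These shares were not matched to the low counts of the cluster genes, so the comparison with them is rough. Among the 30 histone genes with at least 20 counts, the rule was met by 1 on the higher side (H2aw) and 9 on the lower side (H1f1, H1f3, H1f4, H1f5, H2ac8, H2ac20, H2bc11, H2bc24 and H3c6). Of these, H1f1, H1f3, H1f4, H1f5, H2ac20, H2bc11 and H2bc24 reached 20 counts through the control library alone, as did H2bc8 and H3c8, which did not meet the rule. The filter thus favours genes that were high in 1 library, and the count of 9 is a description. The sum over all 67 genes used no filter.

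**Figure D1:**
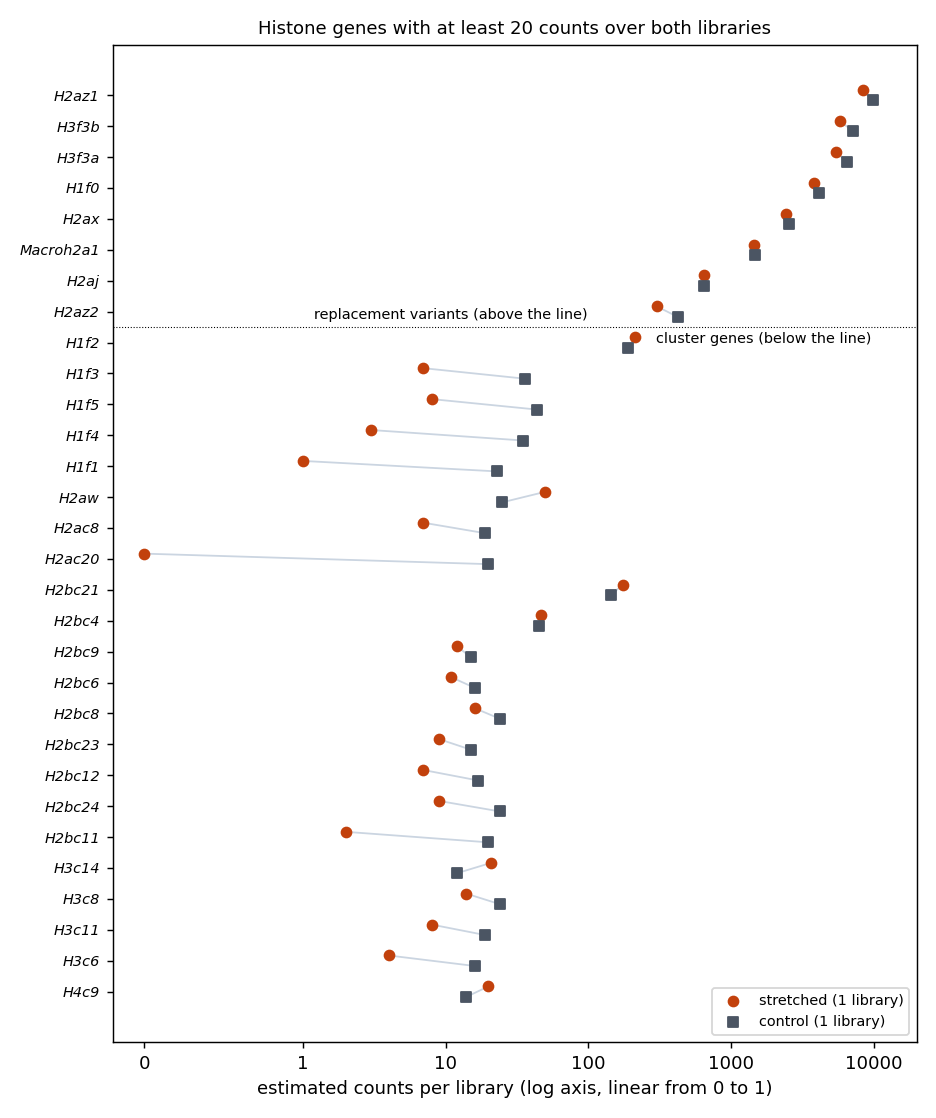
Estimated counts in the stretched library (circles) and the control library (squares) for the 30 histone genes with at least 20 counts over both, on a log axis that is linear from 0 to 1. The 8 replacement variants above the dotted line lie between 302 and 9866 counts with nearly overlapping symbols, and most of the 22 cluster genes lie under 50 counts with the stretched symbol to the left.

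Among the linker histones of the Hist1 cluster, H1f2 stood against the other 4 that had counts. H1f1 (chromosome 13, 23947649 to 23948389, GRCm39) had 1 count in the stretched library and 23 in the control library, a log2 difference of -3.84 (95% counting interval -9.76 to -1.78). H1f4 (23804612 to 23806541) had 3 counts in the stretched and 35 in the control library, a difference of -3.22 (-5.76 to -1.75). Both genes met the size rule, H1f1 with a single count in the stretched library. H1f5 (21964053 to 21964795) had 8 counts in the stretched and 44 in the control library, a difference of -2.26 (-3.63 to -1.23). H1f3 (23737436 to 23744860) had 7 counts in the stretched and 36 in the control library, a difference of -2.16 (-3.65 to -1.05). These met the rule too. Together H1f1, H1f3, H1f4 and H1f5 had 19 counts in the stretched and 138 in the control library, a difference of -2.73 (-3.51 to -2.04). These 4 were grouped without H1f2 after the counts were seen, so the size of this difference follows in part from that choice. H1f2 (23922791 to 23924350), the linker histone gene with the most counts in the cluster, had 213 counts in the stretched and 190 in the control library, a difference of 0.29 (0.00 to 0.58) that did not meet the rule. H1f6, the linker histone gene of the testis, was at 0 in both libraries. Because H1f2 dominates the class, the H1 sum of 232 counts in the stretched and 328 in the control library differed by -0.37 (-0.62 to -0.13).

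The authors' deposited table lists the same 4 linker genes as Down, with log2 fold changes of -4.24 for H1f1, -3.37 for H1f4, -2.32 for H1f5 and -2.22 for H1f3. The adjusted p-values in the authors' deposited table were 0.00142 for H1f1, 0.000129 for H1f4, 0.00247 for H1f5 and 0.0115 for H1f3. Both sets of values rest on the same 2 libraries, and an adjusted p from 1 library a group cannot hold a measured variation between cultures. H1f4 overlaps H2bc6 on the same strand, and the sum of both had a log2 difference of -1.70. None of the 50-base windows of H1f1 and H1f5 occurs in another gene, and 2.25% of those of H1f3 and 32.0% of those of H1f4 do.

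The promoters of the 5 linker genes are shown because H1f2 and its neighbours differed in these libraries although they share a cluster. The windows are the 160 bases before the RefSeq start of each gene (GRCm38.p6, gene strand), with matches to AAACACA (the letters of the H1 box), CCAAT and TATAA on either strand in capitals. The window of H1f1 is chr13:23763508-23763667 (plus strand), of H1f2 chr13:23738647-23738806 (plus), of H1f3 chr13:23554872-23555031 (plus), of H1f4 chr13:23622559-23622718 (minus) and of H1f5 chr13:21780626-21780785 (minus).
H1f1: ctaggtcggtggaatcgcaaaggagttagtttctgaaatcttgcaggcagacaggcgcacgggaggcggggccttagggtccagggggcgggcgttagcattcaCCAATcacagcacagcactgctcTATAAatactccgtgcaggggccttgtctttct
H1f2: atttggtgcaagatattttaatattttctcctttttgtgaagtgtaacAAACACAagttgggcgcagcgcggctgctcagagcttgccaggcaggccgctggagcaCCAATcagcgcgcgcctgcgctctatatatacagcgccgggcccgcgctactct
H1f3: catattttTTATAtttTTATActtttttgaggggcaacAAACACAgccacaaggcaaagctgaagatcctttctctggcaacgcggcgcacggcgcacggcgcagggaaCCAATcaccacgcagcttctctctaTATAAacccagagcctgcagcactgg
H1f4: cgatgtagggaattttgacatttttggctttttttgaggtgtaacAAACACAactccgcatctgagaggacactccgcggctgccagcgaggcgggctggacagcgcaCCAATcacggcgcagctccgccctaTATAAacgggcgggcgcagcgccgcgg
H1f5: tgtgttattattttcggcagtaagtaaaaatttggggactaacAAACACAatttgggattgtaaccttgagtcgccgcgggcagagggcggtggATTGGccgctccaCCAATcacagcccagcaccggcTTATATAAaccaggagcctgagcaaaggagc

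CCAAT stood in all of these windows, and AAACACA in all but that of H1f1. TATAA stood in all but that of H1f2, which reads tatata at that place, and in H1f5 a forward and a reverse TATAA overlap. Over 250 bases before the start, AAACACA occurred in 6.25% of all 32851 promoters and in 9 of the 60 cluster promoters matched. CCAAT occurred in 33.8% of all promoters and in 50 of the 60 (83.3%), and TATAA in 22.8% of all and in 38 of the 60 (63.3%). ATTTGCAT, the octamer known from H2B promoters, occurred in 1.60% of all and in 14 of the 60 (23.3%). Among 9 replacement promoters, CCAAT occurred in 5 and each of the other motifs in 1. A match describes the letters of the window and says nothing of a factor bound there.

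In the H2A class, which forms a dimer with H2B in the nucleosome, the 20 cluster genes summed to 80 counts in the stretched and 139 in the control library, a log2 difference of -0.67 (-1.09 to -0.26). H2ac20 had 0 counts in the stretched and 20 in the control library, which is at least 6.11-fold lower when 3 counts are taken as the floor of the stretched library, which treats the 20 control counts as exact. Its counting interval, which allows for error in both, ended at -2.18 on the log2 scale, a weaker bound. H2ac8 had 7 counts in the stretched and 19 in the control library, a difference of -1.25 (-2.81 to -0.00). These 2 genes met the size rule as lower, and H2aw met it as higher. H2aw had 50 counts in the stretched and 25 in the control library, a difference of 1.11 (0.41 to 1.88), and was the only histone gene that did so. The authors' deposited table lists H2aw as Up with a log2 fold change of 1.12 and an adjusted p of 0.204. Of the other 17 H2A cluster genes, each with under 20 counts over both libraries, H2ac10 had the most, with 2 in the stretched and 16 in the control library.

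The H2B class held the second of the abundant cluster transcripts and showed the smallest difference in its sum. The 17 genes summed to 300 counts in the stretched and 356 in the control library, a log2 difference of -0.12 with an interval of -0.35 to 0.10 that includes equality. H2bc21 had 174 counts in the stretched and 145 in the control library, a difference of 0.39 (0.06 to 0.72). H2bc4 had 47 counts in the stretched and 45 in the control library, a difference of 0.19 (-0.43 to 0.81). Neither of these met the size rule. Without them, a choice made after the counts were seen, the H2B genes had 79 counts in the stretched and 166 in the control library, a difference of -0.95 (-1.35 to -0.55).

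Of the H2B genes that met the size rule, both lower, H2bc11 had 2 counts in the stretched and 20 in the control library, a difference of -2.91 (-6.34 to -1.16). H2bc24 had 9 counts in the stretched and 24 in the control library, a difference of -1.24 (-2.58 to -0.13). The H2bc24 counts were split by model, with 0 in the stretched and 20 in the control library on its model of 1256 bases, and 9 in the stretched and 4 in the control library on its model of 2197 bases. Since 88.7% of its 50-base windows occur in another gene, its count depends on how the authors divided shared reads. The remaining 5 H2B genes with at least 20 counts were also below 0 but had intervals that include equality. H2bc12 had 7 counts in the stretched and 17 in the control library, and H2bc8 had 16 in the stretched and 24 in the control library. H2bc23, H2bc6 and H2bc9 had 9, 11 and 12 counts in the stretched library and 15, 16 and 15 in the control library.

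H3 had the largest difference of a class sum, with 63 counts in the stretched and 139 in the control library over 12 genes, a log2 difference of -1.02 (-1.47 to -0.58). H3c6 had 4 counts in the stretched and 16 in the control library, a difference of -1.75 (-3.91 to -0.24), and was the only H3 gene to meet the size rule. H3c11 had 8 counts in the stretched and 19 in the control library (-1.07, interval -2.52 to 0.14), and H3c8 had 14 in the stretched and 24 in the control library (-0.63, interval -1.72 to 0.36). H3c10 with 3 counts in the stretched and 16 in the control library, and H3c15 with 4 in the stretched and 12 in the control library, stayed under 20 counts. H3c14 went the other way, with 21 counts in the stretched and 12 in the control library (0.91, interval -0.16 to 2.09). All of its 50-base windows occur in another gene, and it overlaps a long noncoding RNA gene on the same strand that had 13 counts in the stretched and 19 in the control library. The sum of that pair had a log2 difference of 0.26.

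The 12 H4 genes summed to 36 counts in the stretched and 49 in the control library, a log2 difference of -0.32 (-0.98 to 0.33), which is not a detectable difference at this depth. H4c9, the only one with at least 20 counts, had 20 in the stretched and 14 in the control library (0.63, interval -0.42 to 1.74).

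**Figure D2:**
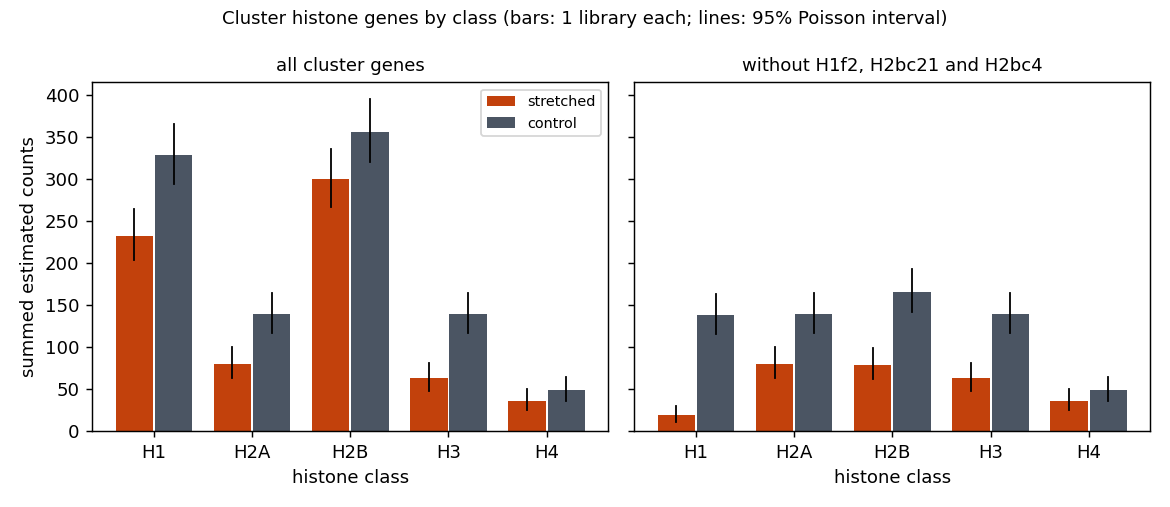
Summed estimated counts of the cluster genes by histone class in the stretched (left bar) and control (right bar) library, for all cluster genes and without H1f2, H2bc21 and H2bc4, with 95% Poisson intervals that cover counting error only. In the right panel H1 stands at 19 counts in the stretched against 138 in the control library, and H2B at 79 in the stretched against 166 in the control library. The genes left out of that panel were chosen after the counts were seen.

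H1f2, H2bc21 and H2bc4 set much of the level of the cluster genes. They held 61.0% of all cluster counts in the stretched and 37.6% in the control library, and their sum of 434 counts in the stretched and 380 in the control library had a log2 difference of 0.32 (0.12 to 0.52). Without them the other 64 cluster genes had 277 counts in the stretched and 631 in the control library, a difference of -1.06 (-1.27 to -0.86). This exclusion was chosen after the counts were seen. The 45 cluster genes with under 20 counts, none of which could meet the size rule, had 68 counts in the stretched and 213 in the control library, a difference of -1.52 (-1.94 to -1.12). Of these 45, 32 had fewer counts in the stretched library, 5 had more, 4 had equal counts above 0 and 4 had none.

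By locus, the Hist1 genes had 454 counts in the stretched and 791 in the control library, a log2 difference of -0.68 (-0.85 to -0.51). The Hist2 genes had 207 counts in the stretched and 195 in the control library, a difference of 0.21 (-0.08 to 0.50) whose interval includes equality. Without H2bc21, the other Hist2 genes had 33 counts in the stretched and 50 in the control library, a difference of -0.47 (-1.15 to 0.19). H2bc21 alone made up 174 of the Hist2 counts in the stretched and 145 in the control library.

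A pair of divergent neighbours at Hist2 had unlike values. H2ac20 (chromosome 3, 96127677 to 96128196, minus strand) and H2bc21 (96128435 to 96131054, plus strand) start 238 bases apart, and H2ac20 had 0 counts in the stretched and 20 in the control library, while H2bc21 had 174 in the stretched and 145 in the control library. The 250 bases before the H2ac20 start, chr3:96220881-96221130 on the minus strand of GRCm38.p6, face H2bc21 and are shown for that reason, with matches to the same motifs and to the octamer, on either strand, in capitals.
H2ac20: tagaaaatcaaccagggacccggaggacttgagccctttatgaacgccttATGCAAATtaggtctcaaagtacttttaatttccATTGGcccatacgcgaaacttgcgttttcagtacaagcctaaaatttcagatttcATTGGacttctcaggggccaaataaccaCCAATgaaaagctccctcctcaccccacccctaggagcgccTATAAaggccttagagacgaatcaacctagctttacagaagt

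There were 14 such H2A and H2B pairs, those of the pseudogenes H2ac14 and H2ac5-ps included, with starts 175 to 305 bases apart. Over these pairs the H2A members had 26 counts in the stretched and 92 in the control library, and the H2B members 276 in the stretched and 325 in the control library. Without the pairs of H2bc21 and H2bc4, the other 12 H2A members had 25 counts in the stretched and 68 in the control library, and their H2B partners 55 in the stretched and 135 in the control library, so the contrast between the H2A and H2B sums rests on those 2 pairs. In the pair of H2ac11 and H2bc11, the H2B gene was lower, with 2 counts in the stretched and 20 in the control library. H2ac11 had 3 in the stretched and 4 in the control library, too few for a comparison. H2ac8 and H2bc8 were both lower in number, with 7 counts in the stretched and 19 in the control library for H2ac8, and 16 in the stretched and 24 in the control library for H2bc8. Differences between pairs were not tested.

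Sums of the cluster genes also differed by the annotated end of the transcript. The 23 genes whose models end within 100 bases of the stem-loop had 46 counts in the stretched and 163 in the control library, a log2 difference of -1.70 (-2.20 to -1.22). The 21 genes with a model that runs over 100 bases past the stem-loop had 385 counts in the stretched and 449 in the control library, a difference of -0.10 (-0.30 to 0.10). For the 23 genes with no match to the motif in a model, the sums were 280 counts in the stretched and 399 in the control library, a difference of -0.39 (-0.61 to -0.16). Some of these genes have a short model, such as H3c11 with 411 bases, and others a long one, such as H2bc21 with 2620. A missing match therefore describes the annotated model and does not show that the gene lacks a stem-loop. The intervals of the first and the second set do not overlap. H1f2 lies in the second set, and H2bc21 and H2bc4 lie in the third. Without them the second set had 172 counts in the stretched and 259 in the control library, a difference of -0.46 (-0.75 to -0.18), and the third had 59 in the stretched and 209 in the control library, a difference of -1.70 (-2.14 to -1.28).

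By model length, the sums were as follows. The 50 cluster genes whose longest model is under 1000 bases had 139 counts in the stretched and 414 in the control library, a log2 difference of -1.45 (-1.74 to -1.17). The 17 genes with a longer model had 572 counts in the stretched and 597 in the control library, a difference of 0.06 (-0.10 to 0.23), although 11 of the 17 lay below 0. Without H1f2, H2bc21 and H2bc4, the other 14 had 138 counts in the stretched and 217 in the control library, a difference of -0.53 (-0.85 to -0.21), so the sign of the sum rests on those 3 genes. H1f3, H1f4 and H2bc24 have long models and were lower by the size rule. In a poly(A) library, a lower level of a cluster messenger RNA and a smaller tailed fraction of it cannot be told apart.

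**Figure D3:**
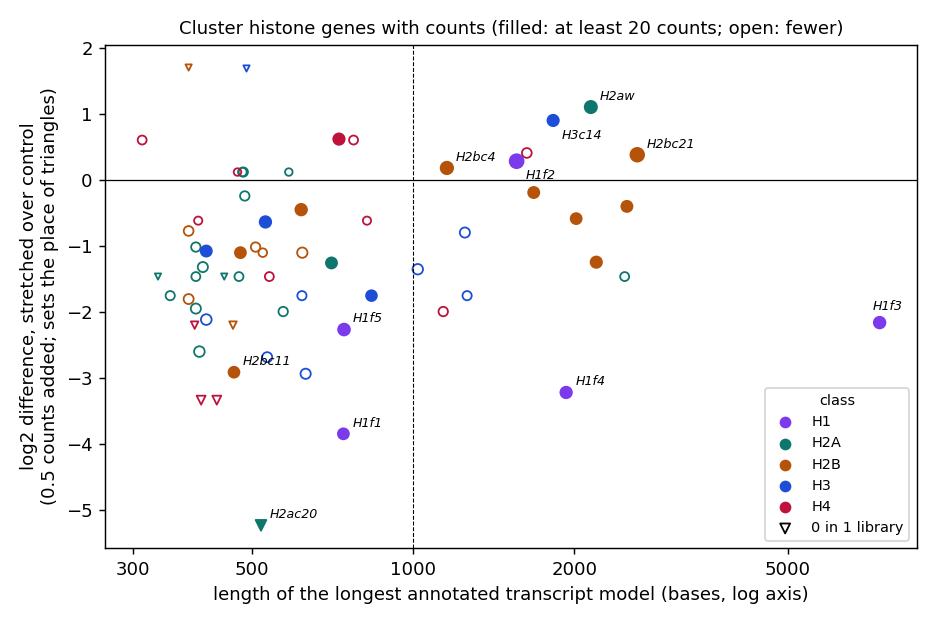
Log2 difference of each cluster gene with counts (stretched over control, 0.5 counts added) against the length of its longest annotated model in bases, both filled (at least 20 counts) and open (fewer) symbols coloured by class. H2bc21, H2bc4, H2aw, H3c14 and H1f2 lie above 0 to the right of the line at 1000 bases, H1f3 and H1f4 lie far below it there, and triangles mark genes with 0 counts in 1 library, whose place is set by the added counts.

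Sums lay below 0 both for genes with much and for genes with little sequence shared with other genes. A window was counted as shared if it occurs in a transcript of any other gene, an overlapping one included. The 34 cluster genes with at least 50 percent of their 50-base windows in another gene had 115 counts in the stretched and 281 in the control library, a log2 difference of -1.16 (-1.49 to -0.85). The 33 genes with fewer shared windows had 596 counts in the stretched and 730 in the control library, a difference of -0.17 (-0.33 to -0.01). Without H1f2, H2bc21 and H2bc4, the less shared genes had 162 counts in the stretched and 350 in the control library, a difference of -0.99 (-1.26 to -0.71).

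Replacement variants carried nearly all histone counts. Per length, H2az1, which encodes H2A.Z and marks promoters, stood highest at 546 FPKM (fragments per kilobase, which the authors scaled to depth) in the stretched and 575 FPKM in the control library. The genes of H3.3, the H3 variant of active chromatin, came next, with 201 FPKM in the stretched and 202 FPKM in the control library for H3f3b, and 170 FPKM in the stretched and 164 FPKM in the control library for H3f3a. H1f0, the linker histone of slowly dividing and differentiated cells, had 129 FPKM in the stretched and 124 FPKM in the control library. H2ax, whose protein is phosphorylated at DNA breaks, had 121 FPKM in the stretched and 113 FPKM in the control library. By contrast H1f2 and H2bc21, the most abundant cluster genes, had 9.35 and 4.56 FPKM in the stretched library and 7.42 and 3.38 FPKM in the control library.

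None of the 8 replacement variants with at least 20 counts met the size rule. H2az2, the second H2A.Z gene, had 302 counts in the stretched and 424 in the control library, the largest difference among them at -0.36 (-0.58 to -0.15). H3f3b had 5776 counts in the stretched and 7219 in the control library, a log2 difference of -0.20 (-0.25 to -0.15). H3f3a had 5452 counts in the stretched and 6546 in the control library, a difference of -0.14 (-0.19 to -0.09), and H2az1 had 8378 in the stretched and 9866 in the control library, a difference of -0.11 (-0.15 to -0.07). The counts of these 4 were lower beyond counting error but by less than 1.5-fold. For the H3.3 genes FPKM differs from the counts, with log2(FPKM + 1) differences of 0.05 for H3f3a, which turns its direction, and -0.01 for H3f3b.

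The other 4 had intervals that include equality. H1f0 had 3840 counts in the stretched and 4179 in the control library (0.00, interval -0.06 to 0.07), and H2ax had 2444 in the stretched and 2557 in the control library (0.06, interval -0.02 to 0.14). Macroh2a1, a variant with a large extra domain that is linked to silent chromatin, had 1442 counts in the stretched and 1487 in the control library (0.08, interval -0.02 to 0.19). H2aj had 648 counts in the stretched and 651 in the control library (0.12, interval -0.04 to 0.28). Macroh2a2 with 8 counts in the stretched and 5 in the control library, and H1f10 with 1 in the stretched and 5 in the control library, were too low for a comparison. H2ax, the replacement variant with a stem-loop, is known to make both a stem-loop and a polyadenylated transcript, and the 2444 counts in the stretched and 2557 in the control library all lay on its single model of 1384 bases.

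**Figure D4:**
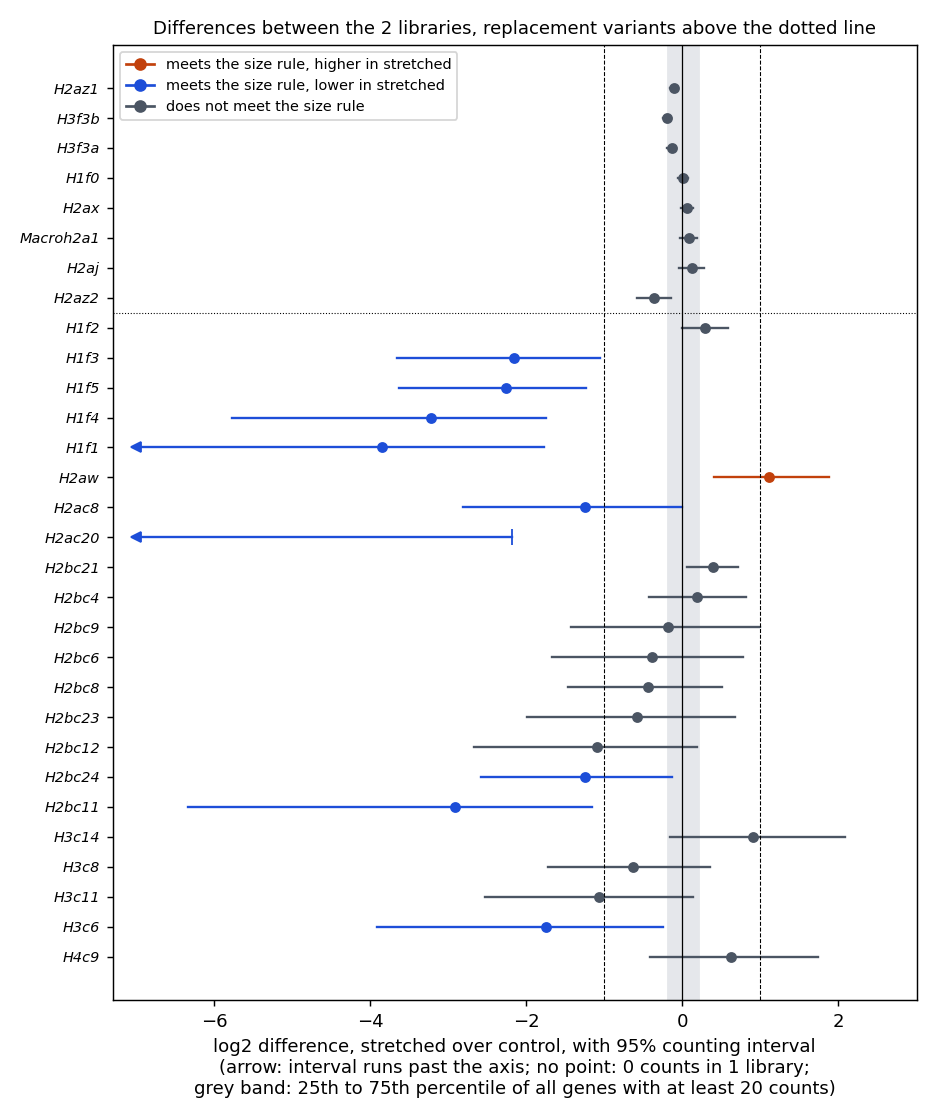
Log2 differences (stretched over control) with 95% counting intervals for the same 30 genes, replacement variants above the dotted line, with the 25th to 75th percentile of all genes with at least 20 counts as a grey band and 2-fold as dashed lines. The replacement variants lie from -0.36 to 0.12, and the cluster genes from -3.84 for H1f1 to 1.11 for H2aw, with H2ac20 drawn as an upper limit because it had 0 counts in the stretched library.

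The estimated counts of H3f3b moved between annotated models more than the gene did. Its model of 1993 bases had 1920 counts in the stretched and 161 in the control library, which is 33.2% of the gene in the stretched and 2.23% in the control library. Its model of 2514 bases had 3323 counts in the stretched and 6559 in the control library, which is 57.5% of the gene in the stretched and 90.9% in the control library. How much sequence these models share, and how the authors' estimate divides reads between them, was not tested. For H3f3a, the model of 888 bases had 644 counts in the stretched and 423 in the control library, and the model of 2841 bases 4745 in the stretched and 6071 in the control library. For Macroh2a1, the model of 2046 bases had 894 counts in the stretched and 829 in the control library, and the model of 1933 bases 423 in the stretched and 542 in the control library.

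Genes that act on histones showed differences under 2-fold. Of 27 genes of histone messenger RNA 3′ end processing and decay, 0 met the size rule in either direction, and their median log2 difference was -0.06. Over all 12772 genes with at least 20 counts the rule was met by 3.12% on the higher side and 1.94% on the lower side. A count of 0 in so short a list lies near those shares and says little about the list. Slbp, whose protein binds the stem-loop, had 887 counts in the stretched and 1325 in the control library, a difference of -0.45 (-0.58 to -0.33). Zfp473, a zinc finger protein of the U7 processing complex, had 51 counts in the stretched and 36 in the control library (0.62, interval -0.02 to 1.29), and Mblac1, a nuclease of histone RNA, had 20 in the stretched and 31 in the control library (-0.49, interval -1.40 to 0.35).

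Likewise 0 of 36 histone chaperones and exchange factors met the size rule, again near the share over all genes, with a median of -0.08. Daxx, a chaperone of H3.3, had 946 counts in the stretched and 641 in the control library, a log2 difference of 0.69 (0.54 to 0.83). Npm1, a nucleolar histone chaperone, had 21442 counts in the stretched and 32275 in the control library, a difference of -0.46 (-0.49 to -0.44). Znhit1, a subunit of the complex that deposits H2A.Z, had 354 counts in the stretched and 309 in the control library, a difference of 0.32 (0.10 to 0.55). The list thus held values on both sides of 0.

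The cluster genes are read in S phase, so 40 genes of S phase and DNA replication were set beside them. Of these, 0 met the size rule, which is again near the share over all genes. In this list 25 lay below 0 and the median was -0.04. Besides Slbp, the members farthest from 0 were Gins3, of the replicative helicase, with 661 counts in the stretched and 450 in the control library (0.68, interval 0.51 to 0.86), and Rfc4, of the clamp loader, with 636 in the stretched and 879 in the control library (-0.34, interval -0.49 to -0.19). Cenpa, the H3 variant of centromeres, which has a name outside the rule, had 2057 counts in the stretched and 2205 in the control library (0.03, interval -0.06 to 0.11). Fewer cells in S phase and less histone RNA per cell cannot be told apart in such bulk samples.

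In the authors' deposited table, 74 of the 81 histone genes are listed. Besides the linker genes H1f1, H1f3, H1f4 and H1f5, those called Down there include H2ac20 and H2bc11. Their log2 fold changes there are -7.27 for H2ac20, which rests on 0 counts in the stretched library, and -3.12 for H2bc11. Of the other genes that met the size rule here, H3c6 is called Down there and H2aw is called Up. H2ac8 and H2bc24 are not called there, with log2 fold changes of -1.30 and -1.28. The remaining genes called Down there had under 20 counts over both libraries. No replacement variant is called there.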

How the data were processed

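Per the labels' protocols, TRIzol RNA was poly(A)-selected and turned into dUTP strand-marked libraries. The submitters' processing notes name StringTie and GRCm39. For the aligner and the counting's strand setting, the sources used here give nothing. Per the file headers, the authors deposited an estimated count and an FPKM value per gene and per transcript, and their comparison table lists per gene the log2 fold change with its p-value, unadjusted and adjusted. For 99.98% of transcripts with counts and a length in each library, the deposited count lay within 0.05 of the range from FPKM times length times 1 constant to that product plus 1, so counts were rounded up per transcript, which raises low ones. Columns marked as tensile were assigned to the stretched sample and those marked as control to the sample titled NC.

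Scaling used TMM factors of edgeR 4.0.16 (1.01 for stretched, 0.995 for control) in R 4.3.3. Log2 differences add a prior of 0.5 counts, and ratios have exact conditional binomial 95% intervals (scipy 1.17.1). These, and the floor of 3 counts, cover counting error only, and no p-value was computed. Histone genes were to be named where they had at least 20 counts, or were among the 3 highest below that. Some with fewer counts, such as H1f8, H1f10, H2ac11 and Macroh2a2, were named outside this rule. Of each other list, the genes meeting the size rule and the 3 farthest from 0 were to be named. Alternatives were DESeq2 1.42.0 size factors, library totals, a prior of 5, unrounded counts, log2(FPKM + 1), other filters and other memberships. Sequences are GENCODE transcripts matched by identifier and length (115 of 115 models) and RefSeq promoters (GRCm38.p6, 70 of the 81 genes). Coordinates of genes are GRCm39. The members and lists were chosen with earlier results of these data known.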

Additional observations from a re-analysis of the deposited data

How the results depend on the processing

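No paired analysis was possible because each group had 1 library, and for the same reason no replicate could be left out. The sums and medians kept their direction under DESeq2 size factors, library totals, a prior of 5 counts and unrounded counts, and the ratio of cluster to replacement counts under unrounded counts, the one of these run for it. At 1.5-fold, a looser rule under which the 10 calls must remain, no gene was added. All 10 calls remained with DESeq2 size factors, where the replacement sum was -0.14. With library totals H2ac8 was lost, with a prior of 5 H2ac8 and H2bc24, and with unrounded counts H2ac20 and H3c6, which fell under 20 counts. Without a count filter H2ac10, H3c1, H3c3 and H3c10 were added and the cluster median was -1.24. At a minimum of 100 counts 0 genes met the rule in either direction and the cluster median, over H1f2 and H2bc21, was 0.34. On the log2(FPKM + 1) scale 4 of the 10 calls remained (H1f1, H1f5, H2ac20 and H2bc11), the summed level was -0.83 for cluster genes and -0.0067 for replacement variants, the cluster median was -0.36, and the replacement median turned to 0.051. Counting H2ax and H2aj with the cluster genes gave -0.024 for the cluster sum, -0.12 for the replacement median and 0.089 (log2) for the ratio of the groups, which turned its direction, since H2ax alone has more counts than all cluster genes. Chosen after the data were seen, leaving out H1f2, H2bc21 and H2bc4 gave -1.06 for the cluster sum and -0.97 for the ratio, and keeping genes with under 50 percent shared windows gave -0.17. Most cluster genes have too few counts for a 2-fold difference to be detectable singly.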
